A study of Mus musculus with 8 samples.

Results

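Vitamin A-storing hepatic stellate cells (HSC) purified from adult mouse liver were set against the whole organ to find which genes mark the cell and which belong to its neighbours. The comparison rests on 2 of the study's 8 arrays. The HSC array, labelled VitaminA+, holds cells of a C57Bl6 mouse line that is transgenic for Col1a1-GFP, a reporter in which regulatory sequence of a collagen gene drives a green fluorescent protein. The whole liver array comes from wild-type C57Bl6, so genotype and cell type cannot be told apart in this pair. The animals of both are given as adult, and no injury, surgery or treatment is named for either. The remaining 6 arrays hold VitaminA-GFP+ cells (VitA-GFP+), GPM6A+ mesothelial cells (MC), portal fibroblasts (PF) after a sham operation, and HSC, PF and MC from biliary fibrosis, all of them Col1a1-GFP transgenic. They serve here only to choose each gene's probe set and as values beside a result. All 20677 genes that a non-control probe set names alone were compared, each through its brightest probe set by mean over the 8 arrays, as the difference HSC minus whole liver on the log2 scale. Each group is 1 array, so no difference has a replicate check and no test was run. The sources used here do not say whether an RNA came from 1 animal or a pool. Nor do they say whether the HSC were sorted by GFP beside vitamin A.

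Stellate cells lie in the space of Disse, between the sinusoidal endothelium and the hepatocytes, and wrap the sinusoids as liver pericytes. They take up retinol, esterify it and keep it in lipid droplets, which gives the cells the autofluorescence by which they can be sorted. They lay down the thin perisinusoidal matrix and send growth factors to hepatocytes and endothelium. After injury they lose retinoid, take on features of myofibroblasts and become a main source of scar collagen. Whole liver RNA comes mostly from hepatocytes and also holds RNA of the stellate cells themselves, so a gene of HSC is diluted on the liver array rather than missing from it. In such bulk samples, fewer cells of a type and less RNA per cell cannot be told apart.

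Genes count as higher or lower in HSC where the arrays differed by at least 2 on the log2 scale, which is 4-fold, and the brighter reading reached the median of non-control probe sets on its array. By this rule 1767 genes were higher in HSC (8.55% of those compared), 2282 were lower (11.0%) and 16628 were neither (80.4%). These shares are the background for the counts of each gene list below. The median difference over all genes was -0.06, with quartiles of -0.83 and 0.70. Genes lower in HSC differed by more, with a median of -3.43 against 2.99 for those higher, and 408 of them passed 64-fold against 21 of the higher ones. On the liver array 758 of the genes called higher lay below the array median, and on the HSC array 1304 of the genes called lower did. No detection call was used here, so the size of those differences depends on a low reading. The rule's edge ran through Msn, inside at 2.0003, and Chpf, outside at 1.9993. On the other side Sorl1 at -2.001 was inside and Tchh at -1.9978 outside.

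**Figure D1:**
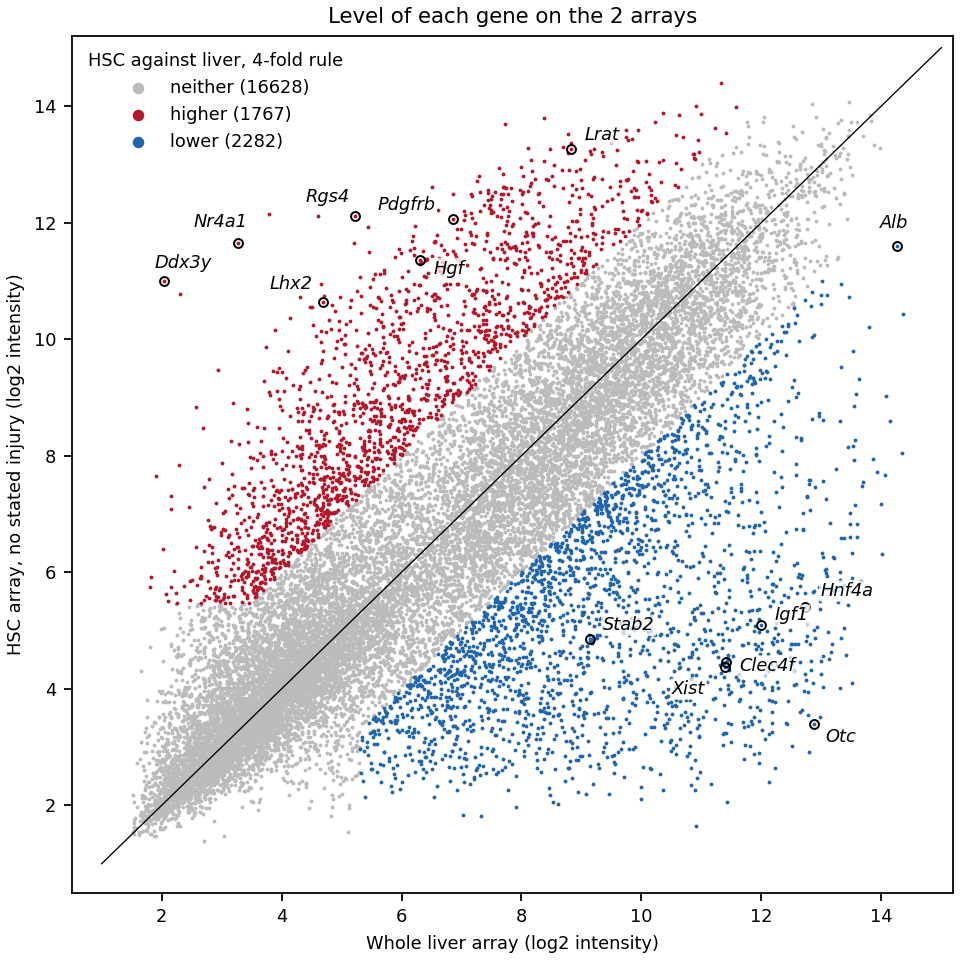
Level of each of the 20677 genes on the whole liver array (horizontal) and the HSC array (vertical), in log2 intensity, with 1 point per gene and the line of equal levels. The 1767 genes called higher (red) and the 2282 called lower (blue) lie apart from the 16628 called neither (grey), and the stellate genes Lhx2, Pdgfrb and Lrat lie on the side opposite to Alb, Otc and Hnf4a.

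The array medians were 5.31 for liver and 5.47 for HSC, so HSC values ran 0.16 higher at the median, and positive differences smaller than that turn negative when the arrays are shifted to the same median. The ratio of 3' to 5' control probe sets, which goes up when RNA is broken or copied short, was 1.42 for Gapdh in liver and 1.75 in HSC, within a range of 1.42 to 13.8 over the 8 arrays. For Actb it was 2.26 in liver and 1.84 in HSC. The Gapdh ratio was 1.56 in VitA-GFP+ cells and 2.01 in MC. It was 13.2 in sham PF and 5.68, 10.2 and 13.8 in HSC, PF and MC of biliary fibrosis. Sample codes start with T for liver, HSC and MC, with R for VitA-GFP+ cells and with AI for the rest. Ranks among the 8 arrays below therefore compare RNA of unlike quality and samples of unlike code series. The sexes of the animals are not in the labels, but sex-linked genes split the pair. Xist, the RNA that coats the inactive X chromosome, read 11.40 on the liver array and 4.37 on the HSC array, a difference of -7.03. The Y-linked genes Ddx3y (8.96, probe sets 5.24 to 8.96), Eif2s3y (8.46, probe sets 2.49 to 8.46), Kdm5d (4.93, probe sets 0.74 to 4.93) and Uty (3.24) went the other way. Sex and cell type therefore cannot be told apart for any gene that differs between males and females.

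Stellate markers and Alb were read first. These genes were picked for this comparison, so their readings are a description and no check of the label. Lhx2, a transcription factor that keeps stellate cells quiescent, read 4.69 on the liver array and 10.63 on the HSC array. Pdgfrb, the receptor for platelet-derived growth factor B, read 6.85 on the liver array and 12.06 on the HSC array. The differences were 5.95 and 5.20. Nr4a1, an orphan nuclear receptor that is also switched on within minutes of a stimulus, read 3.27 on the liver array and 11.65 on the HSC array, a difference of 8.38, and is taken up below with the immediate early genes. Albumin, Alb, the main protein of plasma and a product of hepatocytes, read 14.27 on the liver array and 11.60 on the HSC array, a difference of -2.67. Lhx2 and Pdgfrb were thus higher on the HSC array, and Alb was lower in HSC without being low.

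Of 33 genes known to mark stellate cells, 30 were higher in HSC and none was lower, with a median difference of 4.53 against -0.06 over all genes. The list was chosen with earlier results of these data known, so its counts are a description and no check of the label. On the HSC array 30 of the 33 had their highest reading of all 8 arrays, a place the same array took for 10.9% of all genes. The median level of the list lay 6.92 above the array median in HSC and 2.69 above it in liver, so most of these genes were readable in the whole organ as well. Against the same liver array, which these comparisons share, the list had a median of 1.88 in VitA-GFP+ cells and -1.81 in MC.

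The transcription factor Hand2 read 5.08 on the liver array and 10.25 on the HSC array, and Tcf21, a mesodermal factor of the same basic helix-loop-helix class, 7.83 on the liver array and 12.59 on the HSC array. Both were among the genes higher in HSC (Hand2 5.17, Tcf21 4.76, probe sets 1.5 to 4.76). Lrat, the enzyme that esterifies retinol for storage, read 8.82 on the liver array and 13.26 on the HSC array, a difference of 4.44. The intermediate filament genes Des (4.52) and Gfap (2.98), both classical stellate stains, were called higher, while nestin, Nes, differed by 1.77, probe sets 0.96 to 4.92 and missed the rule. Reelin, Reln, a secreted glycoprotein used to tell stellate cells from other liver fibroblasts, read 9.94 on the liver array and 13.59 on the HSC array. Cytoglobin, Cygb, an oxygen-binding globin, differed by 4.96, and the low-affinity neurotrophin receptor Ngfr by 4.93, probe sets 1.42 to 4.93. Secreted products on the list included Ecm1, which read 10.91 on the liver array and 14.00 on the HSC array, and the hedgehog-binding protein Hhip (5.12). Bambi, a pseudoreceptor that dampens transforming growth factor beta signals, was higher by 5.0. The list members that missed the rule were Nes, Nt5e (0.41, probe sets -0.16 to 0.41) and G0s2, an inhibitor of triglyceride lipase (0.38), and each of them read high in liver or had probe sets that disagreed.

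**Figure D2:**
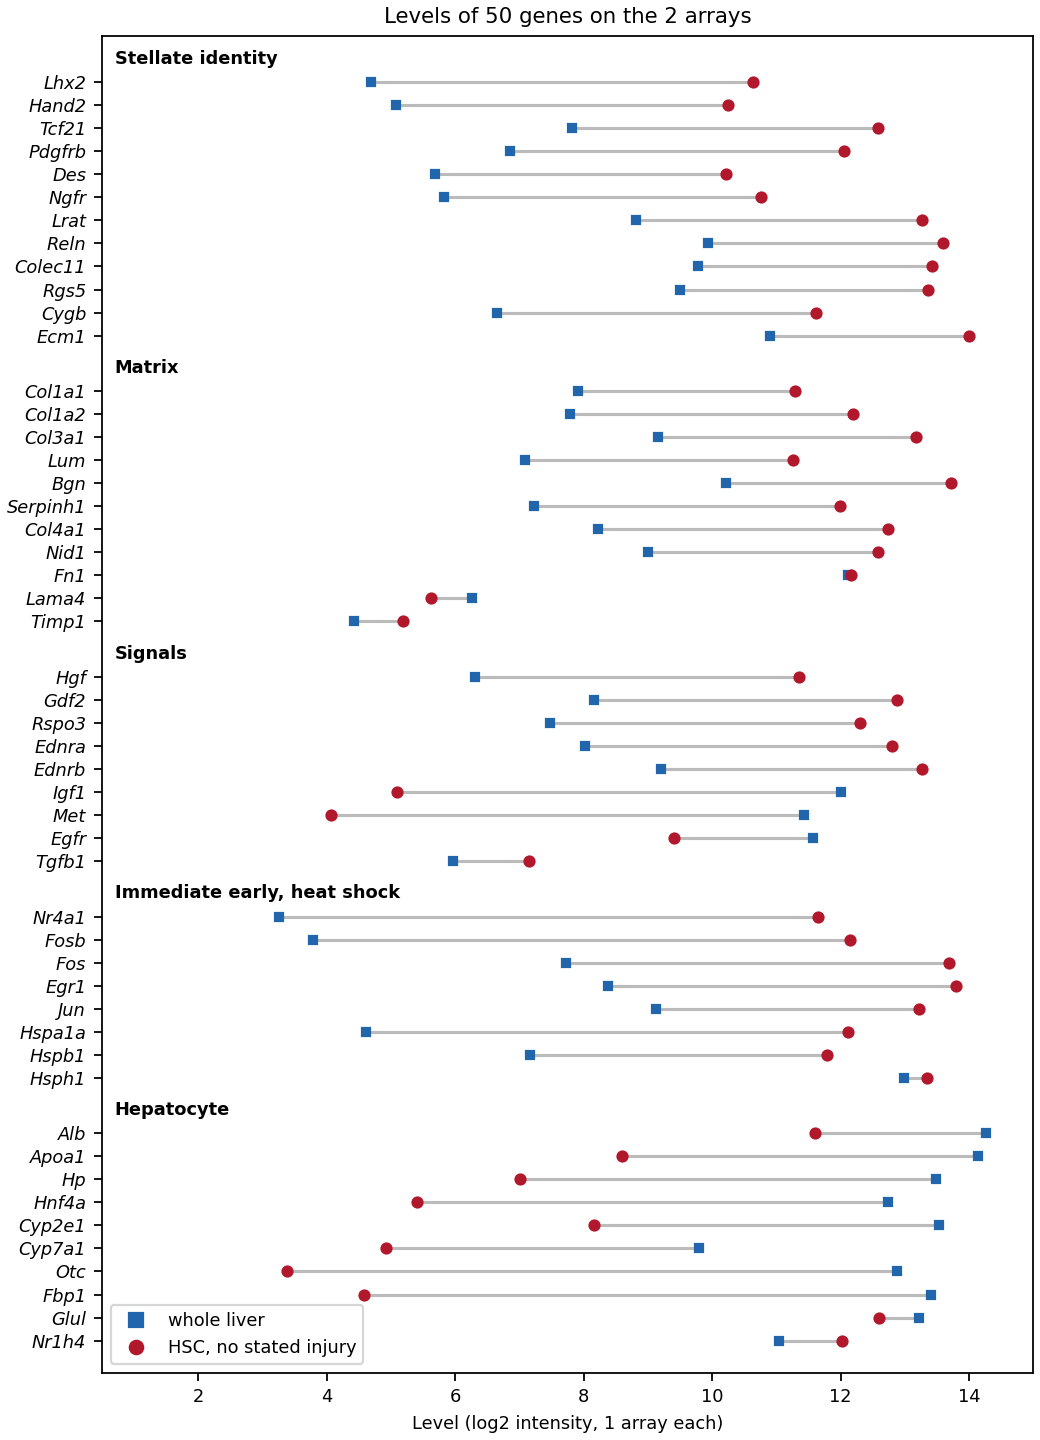
Level of 50 genes on the whole liver array (blue squares) and the HSC array (red circles), in log2 intensity from 1 array each, grouped by role. Every stellate identity gene shown lies to the right in HSC, Fn1 is level on both arrays, and Alb is nearer to its liver reading than Otc or Fbp1.

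Genes of vitamin A metabolism did not go one way. Of 27 measured, 5 were higher, 10 lower and 12 neither, with a median of -0.70. Among the higher ones were Lrat, the carotene-cleaving enzyme Bco1 (from 8.18 to 11.83, a difference of 3.64), the retinal dehydrogenase Aldh1a3 (4.13, probe sets 0.51 to 4.13) and the retinoic acid receptor Rarg (2.25). Genes that hepatocytes use to send retinol into plasma were at the other end. Rbp4, the plasma retinol carrier, went from 12.95 to 5.74, and its partner transthyretin, Ttr, from 13.62 to 9.32. Stra6l, a liver receptor for the carrier, differed by -7.49, and the carotenoid oxygenase Bco2 by -4.27. Aldh1a1, a retinal dehydrogenase, read 12.41 on the liver array and 11.71 on the HSC array, and Rxra, the shared partner of retinoid receptors, differed by 0.10, probe sets -1.12 to 2.64.

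Of 19 lipid droplet genes, 1 was higher (5.26%) and 4 were lower (21.1%), with a median of -0.56. Over all genes the shares were 8.55% and 11.0%. Plin2, the droplet coat protein found in both hepatocytes and stellate cells, read 12.22 on the liver array and 12.07 on the HSC array, a difference of -0.15. Plin5, a coat protein of oxidative tissues, differed by -4.32, and Cideb, which helps load lipoproteins in hepatocytes, by -7.62. The 1 member higher in HSC was lipoprotein lipase, Lpl (from 9.20 to 12.08, 2.88). Dgat2, which makes triglyceride, went from 12.96 to 8.68.

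Genes for fibrillar collagens, their modifying enzymes and associated proteins were higher in the cells with no stated injury. Of 34 measured, 23 were called higher and none lower, with a median of 3.59. The chains of type I collagen read 7.91 on the liver array and 11.29 on the HSC array for Col1a1, and 7.79 on the liver array and 12.20 on the HSC array for Col1a2. Col3a1 went from 9.17 to 13.17, and Col5a1, a chain of the minor collagen that starts fibrils, from 6.22 to 11.94. The differences of these 4 genes were 3.38, 4.41, 4.01 and 5.72. The collagen chaperone Serpinh1 (4.77), fibrillin Fbn1 (5.06, probe sets 1.49 to 5.06), thrombospondin Thbs1 (5.54, probe sets 1.31 to 5.54) and the collagen VI chain Col6a3 (5.06) were higher as well. The small leucine-rich proteoglycans, which bind collagen fibrils, followed, with Lum at 4.17, Bgn at 3.50 and Dcn at 3.07. Fibronectin, Fn1, which hepatocytes also secrete, read 12.12 on the liver array and 12.16 on the HSC array, so the arrays did not separate on it. Lysyl oxidase, Lox, which cross-links collagen, differed by 1.93, probe sets 0.00 to 1.93 and missed the rule, and elastin, Eln, by 1.80. The HSC array was the highest of the 8 for 8 of the 34 genes, and the medians against the same liver array were 4.07 in VitA-GFP+ cells and 2.72 in MC. The part that the Col1a1-GFP reporter, or any sorting by it, has in these readings was not tested.

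Basement membrane genes were divided by chain. Of 24 measured, 12 were higher and 3 lower, with a median of 2.10. Col4a1, a chain of the main type IV collagen, went from 8.22 to 12.74, laminin Lama1 from 5.61 to 10.72, laminin Lamb1 from 7.43 to 12.51 (probe sets 1.94 to 5.36) and nidogen Nid1 from 9.01 to 12.58. Perlecan, Hspg2, differed by 2.53, and the fibulin Efemp1 by 4.91. The members lower in HSC were Col4a5 (-2.71), Col15a1 (-3.87) and Col18a1 (-5.52), the last 2 encoding multiplexin collagens. Lama4, a laminin chain of vessel walls, read 6.27 on the liver array and 5.62 on the HSC array (probe sets -0.65 to 0.17) and was neither.

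Matrix proteases and their inhibitors were higher for 16 of 27 genes and lower for 2, with a median of 2.86. The gelatinase Mmp2 read 6.4 on the liver array and 10.11 on the HSC array. Adamts1 went from 7.18 to 12.45, and the procollagen-trimming Adamts2 and the aggrecan-cleaving Adamts9 differed by 4.96 and 4.92. Among the tissue inhibitors of metalloproteinases, Timp2 (4.07) and Timp3 (3.14) were higher, while Timp1, an inhibitor that activated stellate cells make, read 4.43 on the liver array and 5.19 on the HSC array and was neither. Mmp15 (-2.97) and Mmp19 (-5.33) were the lower members.

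Pericyte and contractile genes were higher in HSC for 16 of 24 members, lower for 1, with a median of 3.32. Rgs4, which shortens signals of G protein-coupled receptors, read 5.22 on the liver array and 12.12 on the HSC array, and with a difference of 6.90, probe sets 3.50 to 6.90 was among the 12 largest of all genes. Rgs5 went from 9.50 to 13.36. The potassium channel of pericytes was represented by both its parts, the pore Kcnj8 (4.94) and the sulfonylurea receptor Abcc9 (4.73). Of muscle genes, tropomyosin Tpm2 (4.99, probe sets 1.57 to 5.18), the light chain Myl9 (4.64), transgelin Tagln (3.98) and smooth muscle myosin Myh11 (3.11) were higher. Acta2, the smooth muscle actin by which activated stellate cells are recognised, read 6.12 on the liver array and 7.13 on the HSC array, a difference of 1.0, probe sets -0.79 to 1.0, and calponin Cnn1 read 3.51 on the liver array and 3.42 on the HSC array. Neither passed the rule. On the other arrays Acta2 read 13.47 in VitA-GFP+ cells, 10.64 in MC, 11.00 in sham PF, and 11.47, 12.46 and 10.16 in the HSC, PF and MC arrays of biliary fibrosis. All 6 of these lay above the HSC reading with no stated injury. The member lower in HSC was the aminopeptidase Anpep (-4.71).

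Vasoactive receptors, listed together with guanylate cyclase subunits and RGS regulators of G protein signals, were higher for 17 of 35 genes and lower for 4, with a median of 1.57, and the HSC array was the highest of the 8 for 14 of them. The endothelin receptors, through which stellate cells contract, read 8.02 on the liver array and 12.80 on the HSC array for Ednra, and 9.20 on the liver array and 13.27 on the HSC array for Ednrb. Agtr1a, the angiotensin II receptor, read 10.87 on the liver array and 13.17 on the HSC array. The sphingosine phosphate receptors parted, with S1pr3 at 6.10 and the endothelial S1pr1 at -5.94. Vipr1, a receptor for vasoactive intestinal peptide (4.95), the natriuretic peptide clearance receptor Npr3 (5.57) and the soluble guanylate cyclase subunit Gucy1a1 (4.60), which senses nitric oxide, were also higher. The other lower members were the vasopressin receptor Avpr1a (-5.36) and the regulators Rgs2 (-2.81, probe sets -3.56 to -0.05) and Rgs16 (-4.06), while Rgs4 and Rgs5, given above, count among the higher.

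The growth factor Hgf and its receptor lay on opposite sides. Hgf, the hepatocyte growth factor, went from 6.31 to 11.35, a difference of 5.04. Its receptor Met, which hepatocytes carry, went from 11.44 to 4.06, a difference of -7.37, probe sets -7.37 to -3.62. Of 49 ligands, 21 were higher and 4 lower, with a median of 1.44. Rspo3, which amplifies Wnt signals in the central lobule, read 7.47 on the liver array and 12.30 on the HSC array. Gdf2, which encodes bone morphogenetic protein 9, read 8.17 on the liver array and 12.88 on the HSC array, and the related Bmp10, which acts on the same endothelial receptor, 3.05 on the liver array and 5.57 on the HSC array. The platelet-derived factor Pdgfd (5.73, probe sets 1.55 to 5.73), Angptl2 (5.51, probe sets 0.76 to 5.51), the guidance cue Ntn1 (5.16, probe sets 0.47 to 5.16) and connective tissue growth factor Ccn2 (5.12) were higher too. The colony-stimulating factor of macrophages, Csf1, differed by 2.60. Cxcl12, a chemokine that holds blood progenitors, read 12.03 on the liver array and 13.72 on the HSC array and missed the rule, as did Tgfb1, the main profibrotic cytokine, at 5.97 on the liver array and 7.15 on the HSC array. The ligands lower in HSC were Igf1 (-6.90), Gas6 (-6.67, probe sets -6.67 to -0.46), Pdgfc (-4.67) and Vegfa (-3.46).

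Among growth factor receptors, 9 of 27 were higher and 6 lower, with a median of 1.32. Beside Pdgfrb, its relative Pdgfra read 8.01 on the liver array and 12.50 on the HSC array, and Tgfbr3, the coreceptor of transforming growth factor beta, 8.92 on the liver array and 12.89 on the HSC array. The insulin-like growth factor receptor Igf1r differed by 4.11, probe sets 0.05 to 4.11, with its ligand Igf1 lower in HSC. Tgfbr2, the ligand-binding receptor of transforming growth factor beta, differed by 1.62 and the insulin receptor Insr by -1.45, both within the rule's bounds. Lower in HSC were Egfr (-2.17, probe sets -3.43 to -0.21), the fibroblast growth factor receptor Fgfr4 (-5.93, probe sets -5.93 to -0.52), the leptin receptor Lepr (-4.99, probe sets -4.99 to 0.97) and the endothelial Kdr (-3.46), along with Met.

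Genes known from neurons and axon guidance were higher for 19 of 37 and lower for 2, with a median of 2.25 here and 1.73 and 0.67 in VitA-GFP+ cells and MC against the same liver array. Robo2, a receptor for slit proteins, went from 1.91 to 7.66, and Cxcl14, a chemokine that this list shares with the chemokine list, from 4.66 to 10.94. The guidance cue Ntn1 and the neurotrophin receptor Ngfr were given above. Nrp2, a semaphorin coreceptor of lymphatic endothelium, was lower (-5.69, probe sets -5.69 to -0.92), and the adhesion molecule Ncam1 differed by 0.86, probe sets -0.46 to 3.66.

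Transcription factors of mesenchyme were higher for 22 of 39 genes, with a median of 2.33, and 1 was lower. Tbx20, a T-box factor known from the heart, went from 6.05 to 12.25, and Heyl, a target of Notch signals, from 4.48 to 10.56. Their differences were 6.20, probe sets 2.18 to 6.20 and 6.08. Foxf1, a factor of visceral mesoderm, read 7.74 on the liver array and 12.59 on the HSC array. Fendrr, the long noncoding RNA transcribed next to it, read 5.44 on the liver array and 11.92 on the HSC array and was among the 12 largest differences. Gata4, which restrains fibrosis in the embryonic liver of the mouse, differed by 2.52, Gata6 by 2.11, Nr2f1 by 4.24 and Snai1 by 4.20. The receptor for Notch ligands Notch3, listed with pericyte genes, differed by 4.59. Wt1, a factor of mesothelium, read 3.97 on the liver array and 4.07 on the HSC array. Pparg, a fat cell regulator that quiescent stellate cells are known to use, was the 1 member lower in HSC and went from 7.91 to 5.06.

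Immediate early genes, which answer a stimulus within minutes and need no new protein, stood among the largest differences. Of 36 measured, 26 were higher in HSC and none lower, with a median of 3.35. Nr4a1 and Fosb followed the Y-linked genes at the top of the whole comparison. Fosb read 3.79 on the liver array and 12.15 on the HSC array, a difference of 8.36, and Gem, a small GTPase of this class, 5.21 on the liver array and 11.65 on the HSC array, a difference of 6.45. The AP-1 subunits Fos and Jun went from 7.72 to 13.69 and from 9.13 to 13.23, and Junb from 6.24 to 9.76. Egr1 went from 8.38 to 13.80, Egr2 from 5.57 to 10.54, Atf3 from 7.70 to 11.85 and Nr4a3 from 4.98 to 10.72. The probe sets of Nr4a3 ran from -0.35 to 5.74, and only the brightest of the 3 was higher in HSC. The phosphatase Dusp1, which switches off the kinases upstream, went from 10.37 to 13.88 and Zfp36, which destabilises messenger RNA of cytokines, from 8.84 to 12.02.

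The liver array had the lowest reading of all 8 for 30 of the 36 genes (83.3%), which it had for 17.5% of all genes. Nr4a1 read 12.34 in VitA-GFP+ cells, 10.64 in MC, 11.09 in sham PF and 10.72, 9.54 and 10.91 in HSC, PF and MC of biliary fibrosis, against 3.27 in liver. Fosb read 12.49, 11.90, 12.73, 11.50, 11.85 and 11.87 in the same order. The liver array was the lowest of the 8 for both, but not for Gem, which read 4.78 in MC and 5.21 in liver. List medians against the same liver array were 4.15 in VitA-GFP+ cells and 3.03 in MC. The part that cell isolation has in these readings was not tested.

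Heat shock genes were not higher as a group, with 4 of 24 higher (16.7%), 1 lower (4.17%) and a median of 0.40. Over all genes the shares were 8.55% and 11.0%. Hspa1a read 4.62 on the liver array and 12.12 on the HSC array, a difference of 7.50, and its near-identical copy Hspa1b 11.57 on the liver array and 13.98 on the HSC array, so which copy a probe set reads is uncertain. The small heat shock proteins Hspb1 and Cryab differed by 4.62 and 4.66, probe sets -0.16 to 4.66. Hsph1 (0.36), Hsp90aa1 (1.2, probe sets -0.23 to 1.2), Dnajb1 (1.73) and Bag3 (1.21) were neither, with liver readings already high, such as 12.99 for Hsph1. Heme oxygenase, Hmox1, was lower (-2.28). Hspa1a read 11.68, 12.11 and 12.05 in VitA-GFP+ cells, MC and sham PF, so for this gene too liver stood apart from the isolated cells.

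Promoter sequence was looked at for the immediate early genes, since they differed together, and for the secreted proteins of hepatocytes as the group at the other end. RefSeq windows of 250 bases before to 50 after the gene start (GRCm38.p6) were searched on both strands for the CArG box (CC, then 6 bases that are each A or T, then GG), to which serum response factor binds, and for the cAMP response element TGACGTCA. A CArG box was found in 4 of 28 immediate early genes with a window (14.3%), in 2 of 37 hepatocyte genes (5.41%) and in 1.81% of all 27025 genes. The cAMP response element was found in 4 immediate early genes (14.3%), in no hepatocyte gene and in 2.03% of all genes. Over all genes called higher with a window, 3.07% held a CArG box, against 1.53% of those called lower. With 1 mismatch allowed in the core the order turned, with 10.9% of the higher and 12.8% of the lower genes. The cAMP response element was in 2.79% of the higher and 2.55% of the lower genes. These are matches of letters and say nothing of binding. The windows below show what such promoters look like, with the motif in capitals, read along the strand of the gene: Dusp5 (chr19:53528895-53529194, plus strand) with a pair of adjoining CArG boxes that start at -82 and -72, Zfp36 (chr7:28379179-28379478, minus strand) with 1 CArG box at -58, and Dusp1 (chr17:26508423-26508722, minus strand) with the cAMP response element at -143. None of the motifs printed in capitals overlaps another.
Dusp5: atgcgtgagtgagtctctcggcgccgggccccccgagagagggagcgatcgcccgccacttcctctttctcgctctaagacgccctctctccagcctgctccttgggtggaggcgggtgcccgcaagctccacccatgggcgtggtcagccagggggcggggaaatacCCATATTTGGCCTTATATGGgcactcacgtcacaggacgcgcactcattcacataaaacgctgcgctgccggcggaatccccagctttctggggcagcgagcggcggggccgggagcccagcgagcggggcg
Zfp36: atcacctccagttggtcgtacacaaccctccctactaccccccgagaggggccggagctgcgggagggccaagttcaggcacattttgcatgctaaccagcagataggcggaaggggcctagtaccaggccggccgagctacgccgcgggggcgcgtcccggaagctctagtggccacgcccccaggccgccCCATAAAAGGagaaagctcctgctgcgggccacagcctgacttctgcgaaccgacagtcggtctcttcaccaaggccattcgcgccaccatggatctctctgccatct
Dusp1: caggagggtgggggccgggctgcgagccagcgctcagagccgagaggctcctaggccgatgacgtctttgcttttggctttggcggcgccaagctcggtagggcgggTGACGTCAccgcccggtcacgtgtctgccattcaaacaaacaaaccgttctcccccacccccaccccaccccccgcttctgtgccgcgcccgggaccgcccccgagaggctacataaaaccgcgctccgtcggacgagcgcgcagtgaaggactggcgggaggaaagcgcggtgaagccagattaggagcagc

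Dusp5, a phosphatase of growth factor signalling whose window holds the pair of CArG boxes, read 6.21 on the liver array and 10.68 on the HSC array, a difference of 4.46. Srf, the gene for serum response factor, has CArG boxes in its own window as well and went from 7.38 to 9.71, a difference of 2.33, probe sets -0.01 to 2.33. For Nr4a1, Fosb and Fos no match to either motif was recorded. Only 28 of the 36 immediate early genes had a window, so a gene without a match may not have been searched. Sequence outside the windows was not searched for any gene.

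Hepatocyte genes made up the largest differences in the other direction. Of 44 secreted plasma proteins, 42 were lower in HSC and none higher, with a median of -6.66. The list lay 7.94 above the array median in liver and 0.86 above it in HSC. Apolipoprotein Apoa1 read 14.14 on the liver array and 8.60 on the HSC array, and haptoglobin, Hp, 13.48 on the liver array and 7.01 on the HSC array. The fetuin Fetub (-8.23), clotting factor F9 (-8.13) and histidine-rich glycoprotein Hrg (-8.02) differed by more. The 2 members not called were Apoe, which many cells of the liver make (from 13.30 to 12.32, -0.99), and Igfbp1 (from 7.64 to 6.22, -1.42). Leaving those aside, Alb had the smallest difference of the list. Over the other arrays Alb read 12.33 in VitA-GFP+ cells, 6.57 in MC, 7.73 in sham PF and 11.26, 10.06 and 6.91 in the HSC, PF and MC arrays of biliary fibrosis. The HSC reading of 11.60 was below liver and VitA-GFP+ cells and above the remaining 5. Summed over the 44 genes, linear intensity was 414581 in liver and 15422 in HSC, and 12 of the 44 lay below the array median in HSC. Hepatocyte RNA among the sorted cells could add to any gene that hepatocytes share with HSC, and its part in the results was not tested.

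Transcription factors that set hepatocyte fate were lower for 19 of 26 genes and higher for none, with a median of -4.33. Hnf4a, the central regulator of hepatocyte genes, read 12.73 on the liver array and 5.40 on the HSC array, a difference of -7.33, probe sets -8.06 to -1.80. Cebpa went from 13.03 to 8.61, Foxa1 from 9.30 to 2.65, Foxa3 from 9.91 to 3.90 and the xenobiotic receptor Nr1i3 from 10.50 to 3.56. Nr1h4, the bile acid receptor, read 11.04 on the liver array and 12.03 on the HSC array and was not lower.

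Cytochrome P450 enzymes of families 1 to 4, which oxidise drugs, steroids and fatty acids, were lower for 31 of 38 genes and higher for none, with a median of -5.93. Cyp2e1, the ethanol-inducible form, read 13.53 on the liver array and 8.17 on the HSC array, Cyp1a2 10.94 on the liver array and 3.48 on the HSC array and Cyp3a11 12.35 on the liver array and 7.47 on the HSC array. Cyp4f14 (-8.79), Cyp2c70 (-8.73), Cyp2b9 (-8.73) and Cyp2b13 (-8.40) had the largest differences. Members of these subfamilies have close copies, and which one a probe set reads is uncertain.

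Bile acid genes were lower for 21 of 27 and higher for none, with a median of -4.71. Cyp7a1, the rate-limiting enzyme of bile acid synthesis, read 9.79 on the liver array and 4.92 on the HSC array (probe sets -8.63 to -4.87), and Slc10a1, the bile acid uptake carrier, 13.31 on the liver array and 8.60 on the HSC array (probe sets -8.27 to -4.71). The sterol hydroxylase Cyp8b1 (-7.32), the conjugating enzyme Baat (-7.65) and the organic anion carrier Slco1a4 (-8.19) differed by more. Enzymes of the urea cycle and amino acid breakdown were lower for 31 of 34, higher for 1, with a median of -6.19. Otc, which makes citrulline in mitochondria, read 12.88 on the liver array and 3.39 on the HSC array, a difference of -9.49, probe sets -9.85 to -6.42, and Cps1, the entry enzyme of the cycle, 13.54 on the liver array and 7.93 on the HSC array. Hpd, which breaks down tyrosine, differed by -9.41. Glutamine synthetase, Glul, read 13.22 on the liver array and 12.59 on the HSC array and was neither.

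The enzyme forms of glucose metabolism differed between the arrays. Of 30 genes, 16 were lower and 3 higher, with a median of -2.58. Enzymes of gluconeogenesis and the liver forms of glycolysis were lower, with Fbp1 going from 13.41 to 4.59, Pck1 from 11.34 to 4.95, G6pc from 10.11 to 4.86 and the liver pyruvate kinase Pklr from 12.27 to 4.82 (probe sets -7.45 to -3.39). The liver glucose carrier Slc2a2 differed by -7.72 and the widely used carrier Slc2a1 by 1.15. Higher in HSC were Pfkp (3.67, probe sets 0.64 to 3.67), the pyruvate kinase Pkm (2.99) and the hexokinase Hk1 (2.78), the forms of tissues other than liver. Sterol and fatty acid synthesis was lower for 22 of 30 genes and higher for 1, with a median of -3.64. Fasn, fatty acid synthase, went from 10.37 to 7.21, and the desaturases parted, with Scd1 at -3.58, probe sets -7.10 to -3.58 and Scd2 at 3.27, probe sets -0.10 to 3.27.

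**Figure D3:**
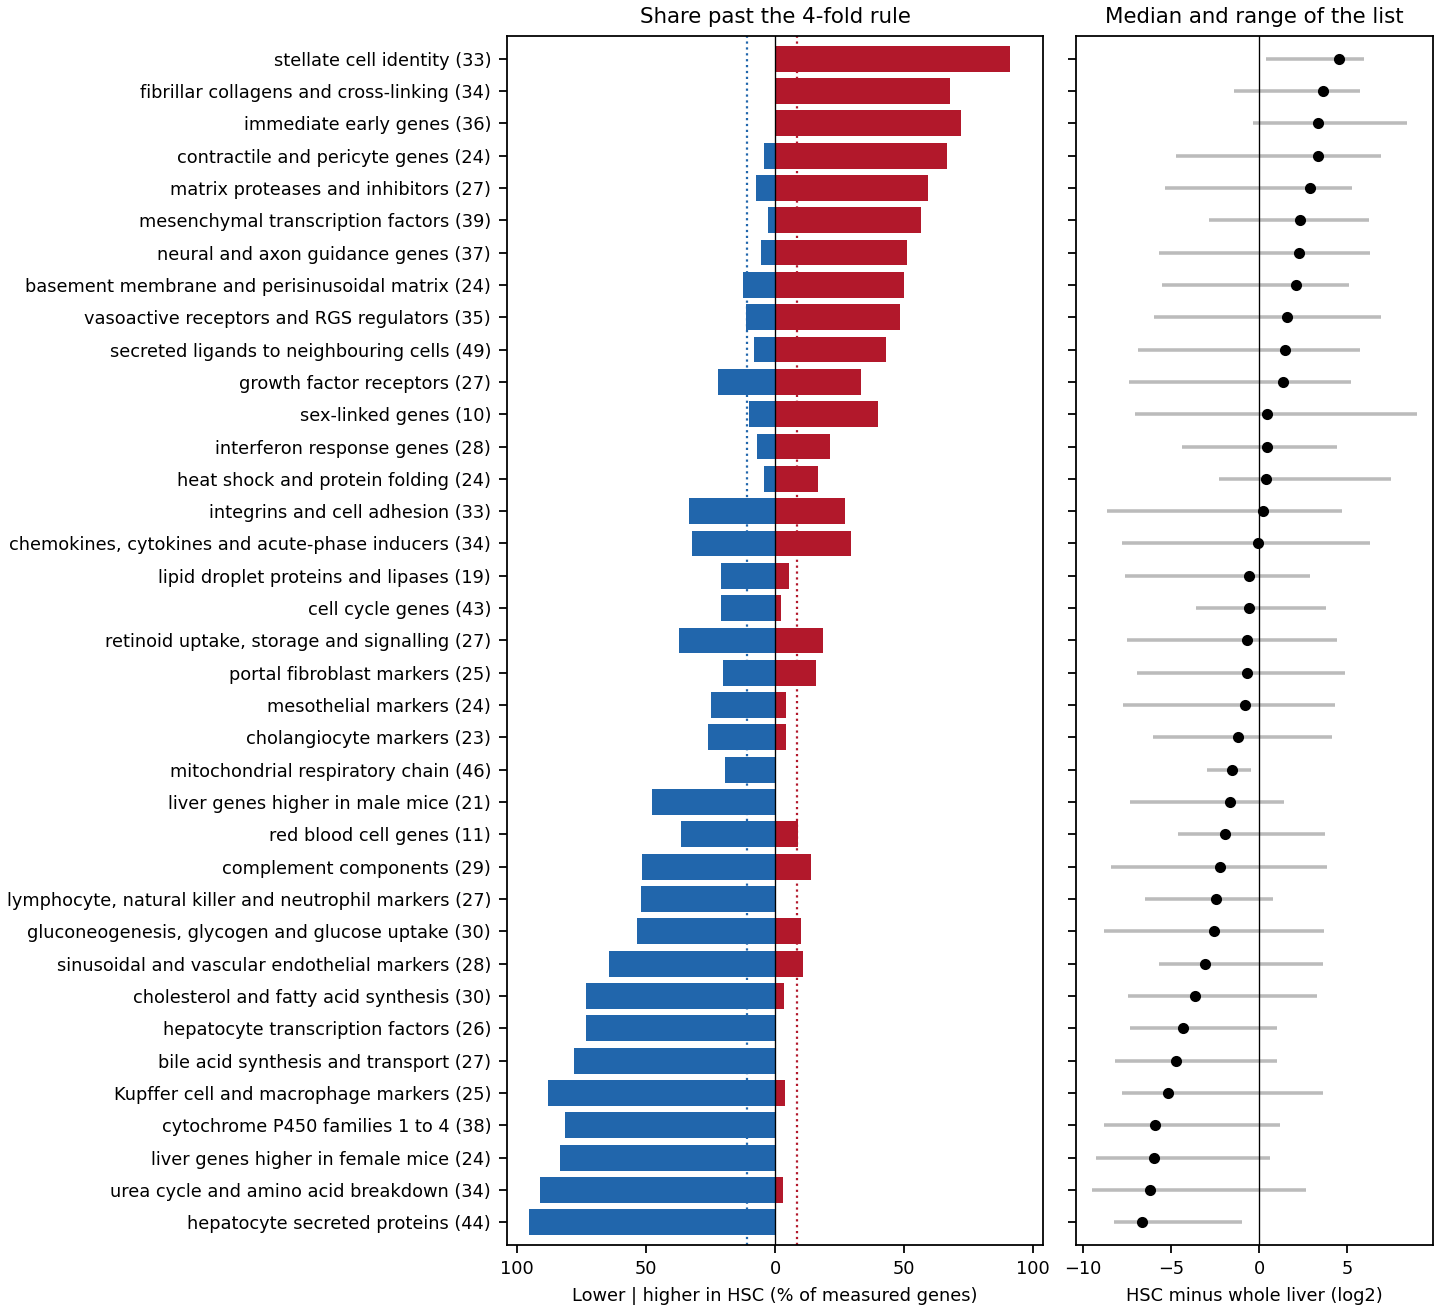
Left, percent of the measured genes of each of 37 lists (number measured in parentheses) that were at least 4-fold higher (red) or lower (blue) in HSC, with dotted lines at the 8.55% and 11.0% of all genes. Right, median (point) and range (line) of the difference HSC minus whole liver in log2. Stellate identity, fibrillar collagen and immediate early lists have no lower member, and hepatocyte secreted proteins have no higher one.

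Complement genes were split between the arrays. Of 29 measured, 15 were lower (51.7%) and 4 higher (13.8%), against 11.0% and 8.55% of all genes. The median was -2.23. The 4 higher ones all serve the lectin pathway, in which sugar-binding proteins carry proteases to a surface. They were Colec10 (from 9.34 to 13.21, 3.87), Colec11 (from 9.78 to 13.42, 3.64), Fcna (from 9.84 to 13.43, 3.60) and the protease Masp1, which read 9.75 on the liver array and 13.47 on the HSC array but whose probe sets ran from -2.37 to 4.45. The mannose-binding lectins of the same pathway were lower, Mbl1 by -8.40 and Mbl2 by -7.86. Terminal components and factor I, products of hepatocytes, were lower, with C8g at -8.08, Hc, which encodes C5, at -7.85 and Cfi at -8.04.

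Chemokines and cytokines were about evenly split, 10 of 34 higher and 11 lower, with a median of -0.04. Ccl2, which draws monocytes, read 7.25 on the liver array and 11.77 on the HSC array, and Cxcl1 and Cxcl10 differed by 2.24 and 2.37. Il6 read 3.62 on the liver array and 3.97 on the HSC array and was low on both arrays. Ptgs2, an inducible cyclooxygenase, went from 3.28 to 5.88 (2.59), and Socs3, a brake on cytokine receptors, from 6.90 to 9.08 (2.18). For both the HSC array ranked 7 of the 8, above the liver array only. Lower were Ccl9 (-7.81), Il18 (-6.66) and the interleukin 1 receptor antagonist Il1rn (-5.53). Against the same liver array the medians of the list were 2.12 in VitA-GFP+ cells and -0.24 in MC.

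Markers of other cells were read on the HSC array against its median, below which 45.6% of all genes lay. Of 25 Kupffer cell and macrophage genes, 22 were lower and 20 lay below the array median in HSC. Clec4f, the Kupffer cell lectin, read 11.41 on the liver array and 4.46 on the HSC array, Csf1r, the receptor by which macrophages live, 10.77 on the liver array and 3.52 on the HSC array (probe sets -7.25 to -3.60) and Vsig4 10.45 on the liver array and 3.99 on the HSC array. The summed intensity of the list was 31822 in liver and 18235 in HSC, and most of the HSC sum came from Fcna and Slc40a1. The 1 member higher in HSC was Fcna, which is on the complement list too and read 13.43. Slc40a1 read 12.08 on the liver array and 12.64 on the HSC array (probe sets -0.05 to 0.57) and was neither. Of 27 lymphocyte, natural killer and neutrophil genes, 14 were lower and none higher, and 25 lay below the array median in HSC, with sums of 4313 and 478.7. Cd3e, a chain of the T cell receptor complex, went from 6.92 to 4.34, and Ptprc, carried by all leukocytes, from 8.52 to 2.06 with probe sets from -6.46 to 1.63.

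Endothelial genes were lower for 18 of 28 (64.3%) and higher for 3 (10.7%), against 11.0% and 8.55% of all genes. On the HSC array 21 lay below the array median, though the summed intensity was 12831 in liver and 13527 in HSC. Stab2, a scavenger receptor of the sinusoids, read 9.13 on the liver array and 4.85 on the HSC array, Pecam1 6.76 on the liver array and 3.72 on the HSC array and the junction cadherin Cdh5 6.41 on the liver array and 2.83 on the HSC array. The 3 members higher in HSC were Eng, a coreceptor for bone morphogenetic proteins 9 and 10 (from 7.92 to 11.56), Ehd3 (from 9.86 to 12.89) and Esam (from 7.40 to 10.14). Most of the summed intensity in HSC came from these members. Stab2, Pecam1 and Cdh5 thus differed in the direction opposite to these 3.

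Bile duct genes were lower for 6 of 23 (26.1%) and higher for 1 (4.35%), against 11.0% and 8.55% of all genes. On the HSC array 19 lay below the array median, and the sums were 4598 and 2483. Krt19 went from 6.03 to 3.52 and Epcam from 4.88 to 4.62, with Spp1 at a difference of -4.91. The higher member was Bicc1 (4.12), which read 10.72 on the HSC array and made up most of the HSC sum. Mesothelial genes were lower for 6 of 24, higher for 1, with 22 below the array median in HSC and sums of 8175 and 692.5. Msln read 4.87 on the liver array and 3.42 on the HSC array, Gpm6a, the surface protein by which MC were chosen, 7.02 on the liver array and 5.92 on the HSC array (probe sets -1.10 to 0.60) and Upk3b 5.44 on the liver array and 3.67 on the HSC array. Msln, Gpm6a and Upk3b were called neither. The lower members included the keratin genes Krt18 (from 12.16 to 4.43) and Krt8 (from 10.91 to 4.24). Their bright liver readings weigh heavily in the liver sum, and which cells they come from was not tested. The higher member was the adhesion receptor Adgrd1 (4.31).

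Portal fibroblast genes were higher for 4 of 25 and lower for 5, with 15 below the array median in HSC and sums of 7785 and 8680. Thy1 read 4.61 on the liver array and 2.95 on the HSC array, Entpd2 6.72 on the liver array and 6.58 on the HSC array and Mgp 7.07 on the liver array and 2.79 on the HSC array. The higher members were Tmem100 (4.87, probe sets 1.16 to 4.87), Gsn (3.50, probe sets -0.09 to 3.69), Smoc2 (3.16) and Heg1 (2.46). Of 11 red blood cell genes, 4 were lower (36.4%) and 1 was higher (9.09%, near the share of all genes). The higher one was the erythropoietin receptor Epor (from 4.88 to 8.59, 3.71). On the HSC array 10 lay below the array median, and the sums were 1039 and 523.4. Epor made up most of the HSC sum. For each of these lists the part that cells of that type have in the results was not tested.

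**Figure D4:**
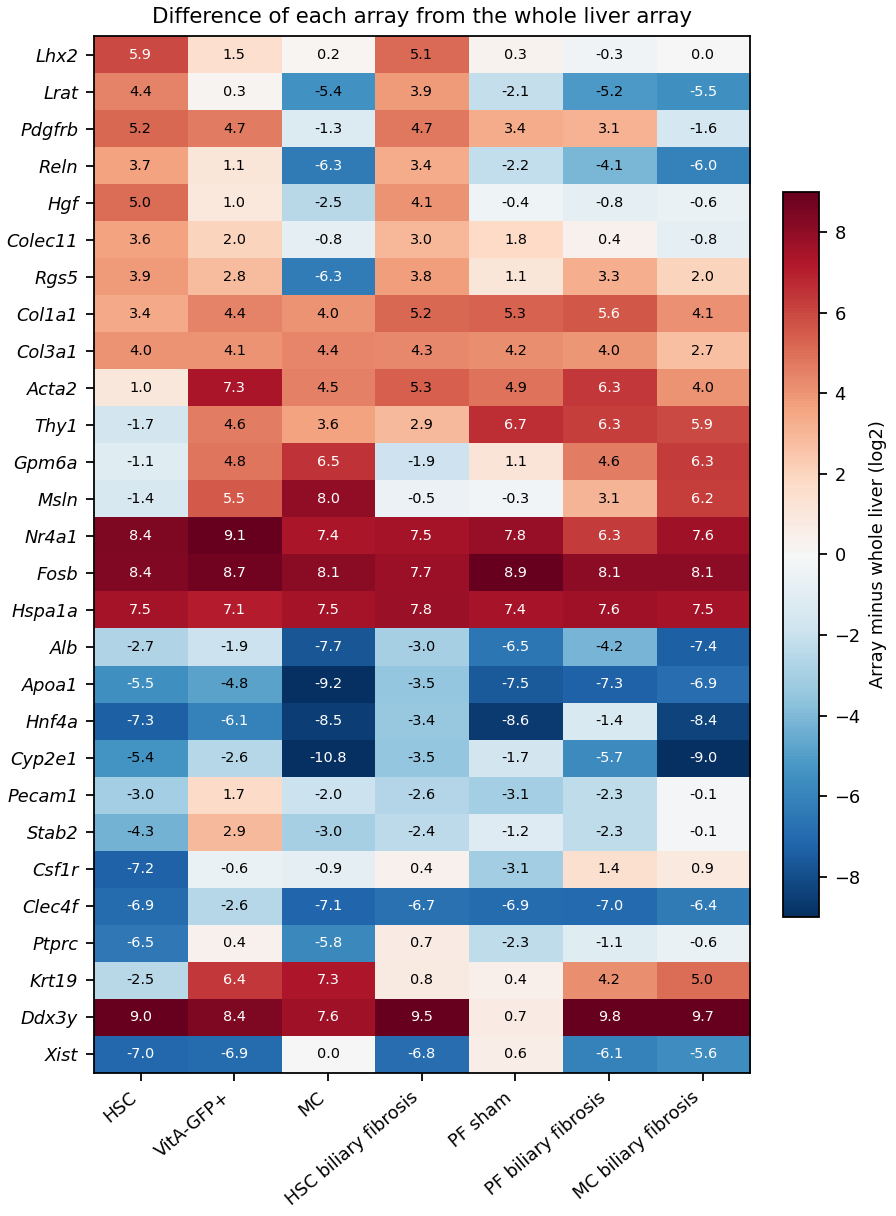
Difference of each of the 7 arrays of isolated cells from the same whole liver array, in log2, for 28 genes. Lhx2, Lrat, Reln and Hgf are highest in the HSC columns, Nr4a1, Fosb and Hspa1a are high in all 7 columns, and Stab2, Csf1r and Ptprc are low in HSC with no stated injury while they are near or above the liver level in VitA-GFP+ cells.

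Liver genes with known sex bias were counted as well, since sex-linked genes split the arrays. Of 24 genes known to be higher in livers of female mice, 20 were lower in HSC and none higher, with a median of -5.95. Of 21 known to be higher in males, 10 were lower and none higher, with a median of -1.66. The sulfotransferase Sult3a1, of the female-biased list, read 12.44 on the liver array and 3.79 on the HSC array. Of male-biased genes, Cyp4a12a read 6.99 on the liver array and 2.66 on the HSC array, Hsd3b5 8.30 on the liver array and 3.75 on the HSC array and Elovl3 4.59 on the liver array and 2.93 on the HSC array. Other male-biased members read higher on the liver array, such as Mup3 (12.58, a difference of -5.85) and Slco1a1 (11.26, a difference of -5.27). C8a (-7.31) and Cyp7b1 (-5.69, probe sets -7.15 to -0.01), of the same list, were lower in HSC as well. Acot3, among the 12 lowest genes of the comparison, belongs to the female-biased list and went from 11.97 to 2.73. Many of these are hepatocyte genes, and for those sex and hepatocyte content cannot be told apart. Not every member was low in HSC, as Gstp1 of the male-biased list read 12.58 on the liver array and 12.09 on the HSC array.

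Among the 12 largest differences in each direction were a few genes not yet described. Higher in HSC were Gjc1, a gap junction protein (from 2.94 to 9.46, 6.52), Trim12a (from 2.57 to 8.83, 6.26, probe sets 1.0 to 6.26) and Ereg, a ligand of the epidermal growth factor receptor (from 4.14 to 10.36, 6.22). Lower were Serpina10, an inhibitor of clotting factor X (from 12.79 to 2.92, -9.87), the siderophore-binding Lcn2 (from 12.13 to 2.40, -9.73) and the uridine phosphorylase Upp2 (-9.58, probe sets -9.58 to -4.41). The carboxypeptidase Cpb2 (-9.49, probe sets -9.49 to -0.08), the acute-phase proteins Saa1 (-9.46) and Orm2 (-9.37), the asialoglycoprotein receptor Asgr1 (-9.29), Pm20d1 (-9.27) and Mat1a, which makes S-adenosylmethionine (-9.24), completed the lower end with Otc, Hpd and Acot3.

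Other probe sets of the same gene mostly went the same way, though not by as much. Of 966 genes called higher that have further probe sets, 776 (80.3%) had all of them on the same side, and 341 (35.3%) had all of them past 4-fold. Of 997 called lower, the counts were 844 (84.7%) and 434 (43.5%). Probe sets of a gene read the same RNA, so this describes the measurement and is no replication.

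**Figure D5:**
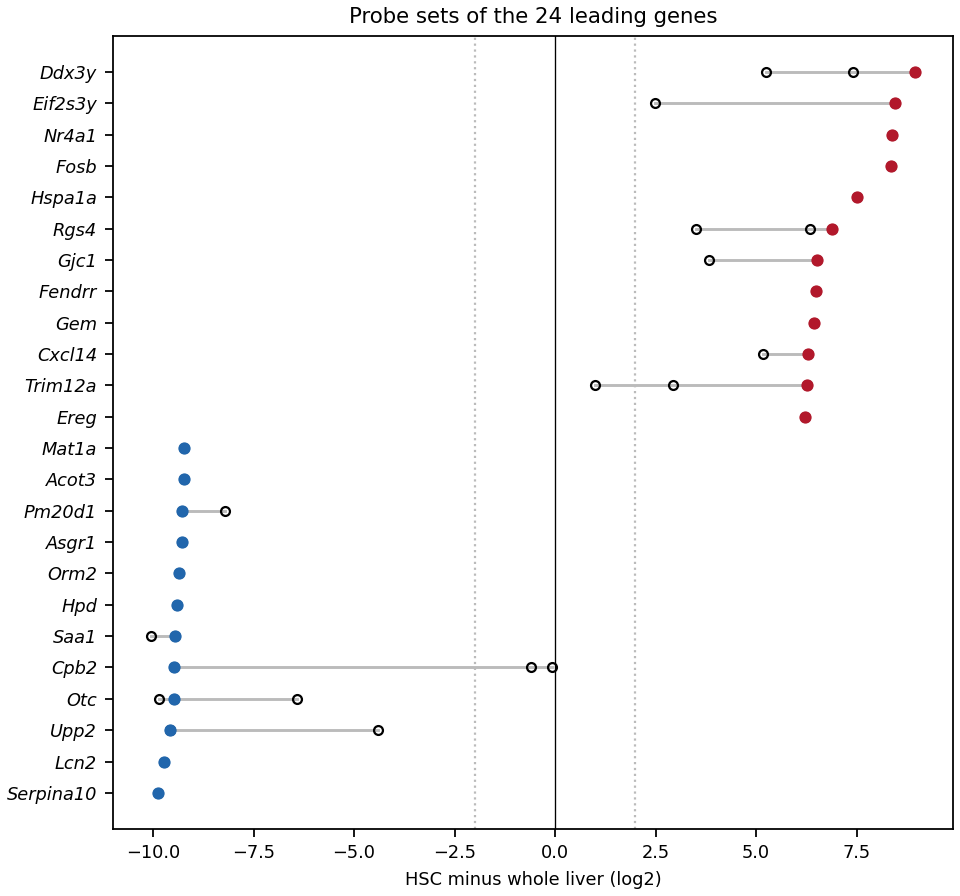
Difference HSC minus whole liver in log2 for each probe set of the 24 genes with the largest differences, with the chosen probe set filled (red higher, blue lower) and the others open; dotted lines mark 4-fold. All probe sets of Rgs4, Gjc1, Ddx3y and Otc pass 4-fold, while Trim12a has probe sets from 1.0 to 6.26 and Cpb2 from -9.49 to -0.08.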

How the data were processed

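RNA was amplified from 20 ng of total RNA and hybridized to Affymetrix Mouse Genome 430 2.0 arrays, per the labels' protocols. RMA and Partek are named in the submitters' processing notes, and the deposited intensity values are the authors' RMA output. Their versions, and whether the 8 arrays were normalized as 1 set, are not given in the sources used here. The values are linear intensities (array medians 39.62 for liver and 44.26 for HSC), so log2 was taken first. Both deposited tables agree at every probe set (largest difference 0).

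After 64 controls were set aside from 45101 probe sets, 38011 had a single gene name, 1280 had several and 5746 had none. Matching 35012 of them by gene identifier updated 3174 symbols. Each gene took its probe set with the highest mean over 8 arrays, a choice among several for 9608 of 20677 genes. Each gene or list was compared between arrays, and no gene's level with another's, since probe sets differ in brightness. Summed intensities of a list weigh its brightest probe sets most.

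The 37 gene lists (1151 names, 1095 measured, 1020 different genes) were drawn from general knowledge, and a gene can be on several. The members and lists were chosen with earlier results of these data known, so list counts are descriptions. The genes given are the 12 largest differences per direction without predicted genes, the preset key genes and up to 4 other leading members of each list. Other members of counts of 5 or fewer, and Srf for its promoter, were added after their values were seen. Some genes chosen this way are not reported here. The range over probe sets stands beside a gene where they lie over 3 apart or go both ways.

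Other settings tried 1 at a time were quantile normalization, a shift to the same median, other minimum levels, a 2-fold rule and other choices of probe set. The calling steps were run on simulated arrays with an assumed noise and set differences only in genes bright on the liver array. That run checks the steps and not the error of the real arrays. With 1 array per group, the number of arrays limits the precision. Tools were Python 3.11.15 (pandas 2.3.3, numpy 2.4.6, matplotlib 3.10.9) and, for the quantile step, R 4.3.3 with limma 3.58.1.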

Additional observations from a re-analysis of the deposited data

How the results depend on the processing

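Counts of called genes stayed within 1.5 times under quantile normalization (1794 higher, 2120 lower), a shift to the same array median (1608 and 2496), no minimum level (1882 and 2338), the 75th percentile as minimum (1228 and 1664), the average over probe sets (1431 and 2043), probe sets without suffixes (1639 and 2003) and a choice by the mean of the 2 arrays (1761 and 2291). A 2-fold rule, wider by construction, gave 3320 and 4219. Over these settings 211 list medians moved by at most 0.5 and 11 by more, a bound chosen with the data in view. The neural list had 1.75 under quantile normalization. With the mean of probe sets the complement list had -2.81, red cell genes -1.39 and bile duct genes -0.70. With the choice by the 2 arrays red cell genes had -2.60 and adhesion genes 0.86. Without suffixed probe sets the vasoactive and RGS list had 2.45, red cell genes -0.49 and adhesion genes 1.25. With symbols as deposited, where fewer names matched, the vasoactive and RGS list had 0.98 and complement -2.97. Of 283 named genes that were called, 5 turned sign without suffixed probe sets, Cryab (-0.16), Masp1 (-2.37), Ndufb2 (0.77), Ptprc (1.63) and Top2a (2.84), since another probe set then stood for the gene. Of all 341 named genes, 119 moved by over 0.5 or turned sign under at least 1 setting, and 112 moved with the mean of probe sets. Within the lists, 13 counts of higher and 25 of lower members moved by over 1.5 times over all settings, among them the lower counts of 12 of the 37 lists with the 75th percentile as minimum. Among probe sets at the minimum level, 92.7% of higher and 92.9% of lower genes had all others on the same side. With 1 mismatch allowed in the core, 39.3% of immediate early genes with a window and 11.3% of all genes held a CArG box. The hepatocyte secreted list then had 18.9%, genes called higher 10.9% and genes called lower 12.8%. No paired analysis was possible because each group holds 1 array, and no replicate could be left out.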

Other observations

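Interferon response genes differed little between the arrays but were often highest in HSC with no stated injury. Of 28 measured, 6 were higher (21.4%) and 2 lower (7.14%) than in liver, against 8.55% and 11.0% of all genes. The median was 0.44. For 19 of the 28 (67.9%) the HSC array had the highest reading of all 8, which it had for 10.9% of all genes. Against the same liver array the medians were -0.29 in VitA-GFP+ cells and -0.35 in MC. Ifitm1, an antiviral membrane protein, read 8.55 on the liver array and 12.99 on the HSC array, and Ifit2 7.58 on the liver array and 10.21 on the HSC array. Ifit1 read 9.67 on the liver array and 9.89 on the HSC array and did not pass 4-fold. Oas3 (-4.35) and Oasl1 (-3.20) were the lower members.

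Adhesion genes went in both directions. Of 33 measured, 9 were higher (27.3%) and 11 lower (33.3%), with a median of 0.19, against 8.55% and 11.0% of all genes. The integrin chains Itga8 (from 7.14 to 11.84), a partner for matrix ligands in mesenchyme, and Itga1 (from 9.20 to 12.79), a collagen receptor, were higher, and Itga6 (from 8.88 to 3.28), a laminin receptor, was lower. Vcam1, which binds leukocytes, went from 9.61 to 12.49. The gap junction proteins of hepatocytes Gjb1 (-7.49) and Gjb2 (-8.62), the tight junction gene Cldn1 (-7.02, probe sets -7.02 to -0.18) and Cdh1 (-5.14) were lower, while Cdh2 read 11.37 on the liver array and 12.84 on the HSC array and was neither.

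Respiratory chain genes were all below their liver level, with differences from -2.98 to -0.44 over 46 genes. Of these, 9 passed 4-fold (19.6%, against 11.0% of all genes) and none was higher. The liver array was the highest of the 8 for 42 of them (91.3%), which it was for 20.4% of all genes. Of 43 cell cycle genes 1 was higher (2.33%) and 9 lower (20.9%), against 8.55% and 11.0% of all genes. The median was -0.59. Mki67, a marker of dividing cells, read 7.82 on the liver array and 7.28 on the HSC array, Birc5 differed by -3.57, and the cyclin Ccnd2 was the higher member (from 8.85 to 12.64).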
